A study of Bos taurus with 8 samples.

Results

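Gene deserts were defined here as runs of consecutive 3 kb windows without a gene name that ran for at least 1 Mb. The windows tile chromosomes 1 to 29 of the bovine assembly UMD v3.1, and the first and last 1 Mb of each chromosome were dropped. Of 41477 runs of windows on these trimmed autosomes, 154 were gene deserts, and they held 74642 of 817901 windows (9.13%) and 223.9 Mb. The comparison classes were 326720 windows with a gene name and 416539 other intergenic windows in shorter runs. The rule uses gene names and length alone.

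A gene desert is a long stretch of genome that holds no annotated gene. Many deserts flank genes for transcription factors that pattern the embryo or genes for neuronal adhesion proteins, and some hold distant enhancers. The assay, methylated-CpG island recovery (MIRA), pulls down sheared DNA with methyl-CpG binding domain proteins, so the reads in a window follow both how many CpG sites it holds and how many of them are methylated. In cultured fibroblasts, gene-poor and late-replicating chromatin is known to hold broad domains of partial methylation. CpG density was not measured, so fewer CpG sites and less methylation per site cannot be told apart in any value given below. Repeat content, the ease of alignment and duplicate reads were not measured either, and their part in the counts was not tested.

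The 8 libraries came from un-treated dermal fibroblasts, 1 culture per animal, taken by skin biopsy from 4 Holstein (dairy) and 4 Angus (beef) heifers that were 19 months old, and sequenced at passage 5. All cultures shared growth medium and pull-down kit, and no library carried a treatment or a genetic change. A methylation library does not measure cell type markers, so the fibroblast label could not be checked in these files. Levels are given as CPM, the reads of a window per 1000000 reads counted in all windows of that library. These totals ran from 18691111 to 35525554 reads, of which the deserts held 2.52 to 4.22%, or 621327 to 1312299 reads. The median desert window held 2 to 7 reads per library, against 4 to 15 for gene windows, so single desert windows were measured coarsely and whole deserts well. Across the deserts, the library with the fewest reads held 98 to 72973 of them per desert.

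Desert windows held fewer reads than gene windows and fewer than other intergenic windows in all 8 libraries. The mean level per desert window was 0.421, 0.565, 0.449 and 0.495 CPM for Holstein 1 to 4 and 0.519, 0.470, 0.338 and 0.483 CPM for Angus 1 to 4. For gene windows it ran from 0.596 to 0.947 CPM and for other intergenic windows from 1.10 to 1.17 CPM. The ranges of the classes did not overlap. Desert over gene windows had a mean log2 ratio of -0.81 (SD 0.0988, n = 8 libraries), a ratio of 0.569 that was below 1 in 8 of 8 libraries (exact sign-flip test, 2-sided, p = 0.00781, adjusted p = 0.00977 over 5 tests). Desert over other intergenic windows had a mean log2 ratio of -1.28 (SD 0.234, n = 8), a ratio of 0.412 (exact sign-flip test, p = 0.00781, adjusted p = 0.00977). This p of 0.00781 is the smallest that 8 libraries allow. It measures how far the libraries repeat each other over the same windows, and not a spread between regions.

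A small number of windows with very many reads weighed on these means. Without the 1% of trimmed autosomal windows with the highest mean CPM (4.56 CPM or more), the desert level was 0.148 to 0.315 CPM, the gene level 0.385 to 0.723 CPM and the level of other intergenic windows 0.266 to 0.538 CPM. The order of the 2 comparison classes turned, with gene windows then above other intergenic windows, while desert windows remained lowest in each library. The log2 ratio to gene windows was then -1.38, lower than with all windows, and that to other intergenic windows -0.87, closer to 0, both with an exact sign-flip p of 0.00781. Holstein 1 and Angus 3 had the lowest desert levels in this form, 0.152 and 0.148 CPM. In the same libraries the 1% of windows with the most reads took 69.0 and 72.4% of all counts, against 46.8 to 57.4% in the other libraries, and the part of this in their low desert levels was not tested.

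**Figure D1:**
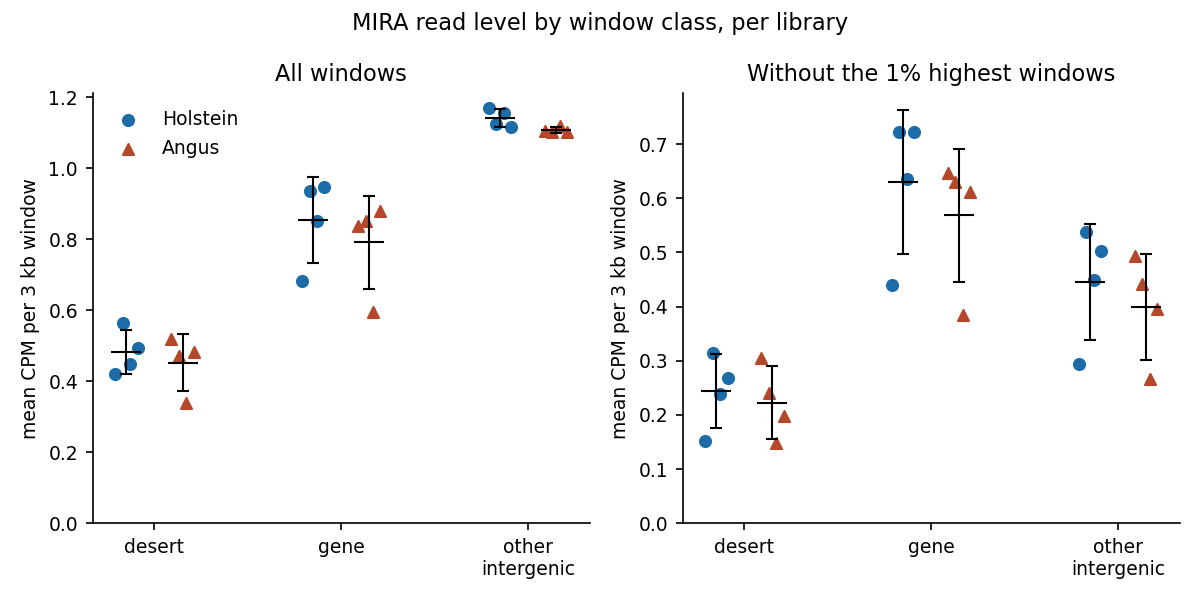
Mean CPM per 3 kb window in desert, gene and other intergenic windows, with 1 point per library (4 Holstein, 4 Angus) and bars for the breed mean and SD. Desert windows are lowest in both panels, at 0.338 to 0.565 CPM with all windows and 0.148 to 0.315 CPM without the 1% of windows with the highest mean CPM, while gene and other intergenic windows change places between the panels.

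Moderately covered windows were also scarce in deserts. A mean of at least 1 CPM was reached by 1.80% of desert windows (1347), against 17.6% of gene windows and 8.61% of other intergenic windows. The median desert window had a mean of 0.170 CPM, with quartiles of 0.0957 and 0.290 CPM, and the median gene window had 0.347 CPM. Windows without a read in any library made up 0.665% of desert windows (496), 0.157% of gene windows and 0.258% of other intergenic windows. Of these 496, 358 formed 1 block in a single desert described below, and the other deserts held 138. The desert share therefore rested mostly on 1 desert.

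The 154 deserts lay on 28 of the 29 autosomes. Chromosome 1 held 15, chromosome 9 held 12 and chromosomes 8 and 12 held 11 each. Chromosome 19 held none, and had the largest share of windows with a gene name, 54.9%. Deserts took 18.1% of the windows of chromosome 24 and 17.6% of those of chromosome 12. Their median length was 1332 kb (range 1002 to 3627 kb). Of the 154, 15 were 2 Mb or longer and 4 were 3 Mb or longer.

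The flanking genes were 296 different names at 308 desert ends, and 171 of the ends were LOC names, which mark predicted genes without an approved symbol. By symbol or gene number, 214 names matched RefSeq's annotation of the newer assembly ARS-UCD2.0, where 141 are protein coding, 63 pseudogenes, 6 microRNAs, 3 long non-coding RNAs and 1 ribosomal RNA. Both flanks could be followed there on the same chromosome at a comparable spacing for 72 deserts. In that annotation 62 of these 72 hold no protein-coding gene between the flanks and 10 hold 1, such as GALNTL6 between LOC511409 and GALNT7 and PTPRK between THEMIS and LOC783321. A desert of the older gene names was therefore not always empty of coding genes.

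The longest desert, 1209 windows at chr11:51093685-54720684, lies between LOC100138037 and CTNNA2, which encodes a catenin of neuronal junctions. Its level was 0.111, 0.240, 0.177 and 0.196 CPM per window for Holstein 1 to 4 and 0.246, 0.181, 0.114 and 0.153 CPM for Angus 1 to 4. The breeds overlapped, and Holstein 1 and Angus 3 were lowest, as they were over desert windows in general once the highest windows were left out. The next in length were the deserts at chr14:52953147-56307146 (1118 windows, CSMD3 to LOC782102, mean 0.175 CPM), chr8:2291487-5505286 (1071 windows, LOC511409 to GALNT7, 0.260 CPM), chr29:13583119-16685118 (1034 windows, LOC618199 to MIR708, 0.231 CPM) and chr1:47305701-50155700 (950 windows, ZPLD1 to LOC785980, 0.190 CPM). CSMD3 encodes a large membrane protein of neurons and GALNT7 a glycosyltransferase that starts O-linked sugar chains. The median of all 154 deserts was 0.236 CPM per window, and of these 5 only the GALNT7 desert was above it.

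Length and level were hardly related over the 154 deserts. Without the highest 1% of windows, Spearman's rho of length with level was -0.13 (n = 154 deserts that share the same 8 libraries). At the length threshold, the shortest deserts were AGBL1 to NTRK3 (1002 kb, 0.422 CPM), LOC100295007 to LOC782675 (335 windows, 0.183 CPM) and SPRED2 to MEIS1 (335 windows, 0.358 CPM). The runs just under it were LOC790088 to LOC100138651 (333 windows, 0.314 CPM), LOC100335602 to HMGB1P1 (331 windows, 0.226 CPM) and HTR2A to SUCLA2 (331 windows, 0.551 CPM).

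Deserts kept their order from animal to animal. Without the highest 1% of windows, Spearman's rho between the 8 libraries over the 154 deserts was 0.966 to 0.987. Relative to the mean desert level of its library, a desert's level had a coefficient of variation over the 8 libraries of 1.29 to 14.1%, with a median of 4.41%. The most variable was the desert between ADAMTS16 and IRX1 (14.1%).

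**Figure D2:**
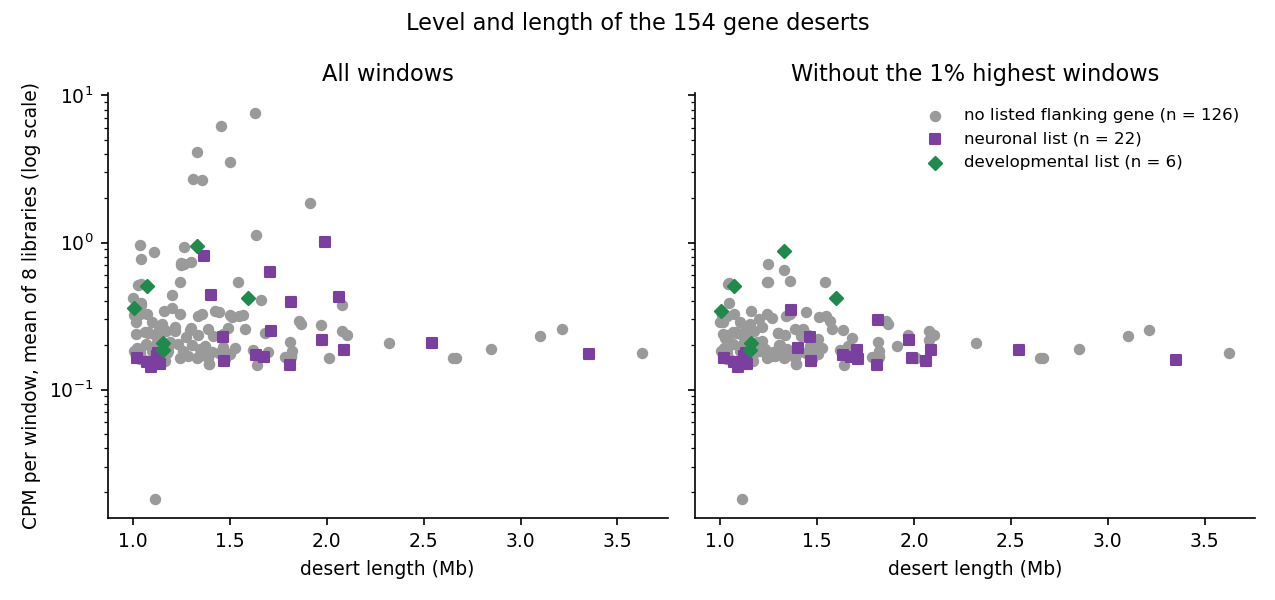
Level of each of the 154 deserts (CPM per window, mean of 8 libraries, log scale) against its length in Mb, with all windows (left) and without the 1% highest windows (right), and with deserts flanked by genes of the neuronal (n = 22) and developmental (n = 6) lists marked. With all windows the levels span 0.0182 to 7.63 CPM, and without the highest windows they stop at 0.876 CPM, with no slope along the length.

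Without the highest 1% of windows, the 154 deserts had a median of 0.199 CPM per window (quartiles 0.172 and 0.257) and only 3 were above the mean of gene windows. These 3 were chr20:68141918-69470917 (ADAMTS16 to IRX1, 0.876 CPM), chr9:98378051-99626250 (AGPAT4 to MIR2482, 0.713 CPM) and chr2:123403134-124732133 (MATN1 to LOC100296369, 0.651 CPM), and were named after their values were seen. IRX1 encodes an Iroquois homeobox factor that patterns the embryo and ADAMTS16 a secreted metalloproteinase. With all its windows, the ADAMTS16 to IRX1 desert had 0.713, 1.04, 1.01 and 1.09 CPM per window for Holstein 1 to 4 and 1.01, 0.992, 0.651 and 1.04 CPM for Angus 1 to 4. Its lowest libraries were again Holstein 1 and Angus 3, and its median window, at 0.692 CPM, was the highest of all deserts. Next were the deserts beside CADM1, a cell adhesion molecule (0.545 CPM), and between TCF4, a helix-loop-helix factor, and TXNL1, a thioredoxin-like protein (0.540 CPM).

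The lists of flanking genes were set with earlier results of these data known, so their medians are descriptions. Of 92 developmental regulators listed as frequent neighbours of deserts, 76 are named in these files and 6 flanked a desert. Their deserts, 6 in number, had a median of 0.381 CPM per window without the highest 1% of windows, against 0.199 CPM over all 154, with 5 above the median of all. Beside the IRX1 desert, they included those beside RUNX1, a factor of blood cell formation (to SETD4, chr1:148951101-150025100, 0.509 CPM), MEIS1, a homeobox cofactor of HOX proteins (from SPRED2, chr11:63762885-64767884, 0.342 CPM) and DACH1, a transcriptional corepressor of eye and limb (from LOC100296448, chr12:45222722-46377721, 0.187 CPM). The spread among the 6 was wide, from 0.187 to 0.876 CPM. The RUNX1 to SETD4 desert had 0.369, 0.676, 0.550 and 0.602 CPM for Holstein 1 to 4 and 0.606, 0.514, 0.300 and 0.457 CPM for Angus 1 to 4, so the breeds overlapped. None of the 6 was called between the breeds, and their log2 fold changes of Holstein over Angus ran from -0.09 to 0.08.

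Of 92 neuronal adhesion and synapse genes, 78 are named in the files, and 19 of them flanked 22 deserts, since PCDH17, SLITRK5 and CSMD3 each stand between neighbouring deserts, which therefore share a flank. These 22 deserts had a median of 0.167 CPM per window without the highest 1% of windows, against 0.199 CPM over all 154, and 13 of the 22 were under the lower quartile of all deserts. They include the deserts beside CDH9 and CDH12, cadherins of synapses (0.142 and 0.150 CPM), and SLITRK1 and SLITRK5, synaptic adhesion proteins. The highest of the 22 was the desert beside FLRT3, a leucine-rich repeat adhesion protein (0.350 CPM). CADM2 is on the list but the cell adhesion molecule CADM1 is not, and the CADM1 desert was above all 22. The 22 were longer than most, with a median of 551.5 windows against 444.

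The lowest deserts were almost free of strong windows. After 1 desert described next, the lowest mean levels were those of chr20:46795918-47887917 (CDH9 to LOC100336412, 0.142 CPM), chr12:59149522-60958521 (SLITRK1 to LOC100848098, 0.148 CPM), chr8:34064887-35703686 (LOC100141071 to LOC787321, 0.148 CPM) and chr9:4700251-6093350 (LOC100299681 to LOC100847948, 0.149 CPM). The CDH9 desert had 0.0809, 0.209, 0.144 and 0.160 CPM for Holstein 1 to 4 and 0.199, 0.142, 0.0914 and 0.112 CPM for Angus 1 to 4. The counts behind these means were 582 to 2077 reads per library, so counting error was small beside the spread between libraries.

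A single desert was nearly without reads. In chr7:6705446-7818445, between LOC100336881 and AP1M1, which encodes an adaptor subunit of clathrin-coated vesicles, 358 of 371 windows held 0 reads in all 8 libraries. These windows formed 1 unbroken block, chr7:6720446-7794445 (1074 kb). The 13 windows around it held 21 to 351 reads each, summed over the 8 libraries. The level over the whole desert was 0.0134, 0.0219, 0.0193 and 0.0224 CPM per window for Holstein 1 to 4 and 0.0209, 0.0194, 0.0110 and 0.0172 CPM for Angus 1 to 4, all from the windows at its 2 ends. A count of 0 allows up to 3 reads, or 0.0844 to 0.161 CPM in a single library, counting error only. For the block, this limit holds for the summed CPM of its 358 windows, so the limit per window is far lower. The block held 358 of the 496 desert windows without reads, and the longest such stretch in any other desert was 6 windows, between LOC100140105 and LOC100295916. Whether the assembly holds sequence in the block to which reads can be aligned was not tested.

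The highest mean levels came from a few windows. Desert windows with a mean of at least 10 CPM numbered 141, 0.189% of desert windows, and held 49.8% of the summed desert CPM. In gene windows the same threshold was passed by 0.202% of windows with 18.2% of the CPM, and in other intergenic windows by 0.441% with 61.4%. In the deserts these windows formed 48 patches of consecutive windows in 42 deserts, of which 27 were a single window and 13 were 2 windows long. The 5 highest patches held 64.5% of the CPM of all 48. The other 112 deserts had no such window. In these read-dense windows, reads were piled on few positions, since the highest base of the median window was covered by 36.7% of its reads in the median library (35.3 to 38.7% over the 8 libraries), against 28.4% in gene windows and 32.3% in other intergenic windows of the same threshold.

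The highest patch was chr1:11268701-11274700, 2 windows in the desert between LOC100139931 and LOC100847925. Summed over both windows it held 3628, 4359, 3462 and 4370 CPM for Holstein 1 to 4 and 3514, 5023, 2702 and 5316 CPM for Angus 1 to 4. The libraries lay within 1.97-fold of each other and the breeds overlapped. This patch made up 97.7% of the CPM of its desert, chr1:11163701-12793100, which had the highest mean of all, 7.63 CPM per window, and only 0.175 CPM without its highest windows. Its 2 windows, at 2077 and 1970 CPM, were also the 2 desert windows with the highest mean.

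The longest patch was chr8:56712687-56856686, 48 windows between LOC100294967 and LOC100295070, with 3849, 3257, 2650 and 2910 CPM for Holstein 1 to 4 and 2690, 2656, 1763 and 3547 CPM for Angus 1 to 4. It gave its desert, chr8:56034687-57489686, 96.6% of its CPM and a mean of 6.22 CPM per window. Next came 8 windows at chr3:64398510-64422509, between LOC100140105 and LOC100295916, with 1243 to 2291 CPM per library. They lay 3 kb, 1 window, beyond the stretch of 6 windows without reads in the same desert. The patch chr2:124543134-124549133, 185 kb from the nearest gene window in the desert beside MATN1, a cartilage matrix protein, held 1064 to 1713 CPM in 7 libraries and 2636 CPM in Angus 3, and the highest base was covered by 70.7% of a window's reads (median over windows and libraries). The last of the 5 was chr1:124937901-124955900, between PLOD2, a lysyl hydroxylase of collagen, and LOC100847931 (661 to 1450 CPM).

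The remaining single windows among the 5 highest were chr2:124543134-124546133 in the MATN1 desert (1490 CPM), chr24:19269331-19272330 between LOC100294806 and CELF4, an RNA-binding protein of neurons (472 CPM), and chr3:64401510-64404509 between LOC100140105 and LOC100295916 (469 CPM). Next among deserts by mean level, after MATN1, came chr3:63579510-65082509 (LOC100140105 to LOC100295916, 3.51 CPM) and chr1:28973801-30285000 (GBE1, a glycogen branching enzyme, to LOC100337296, 2.71 CPM). Without their highest windows both were ordinary, at 0.193 and 0.202 CPM.

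Some patches differed strongly between animals. The ratio of the highest to the lowest library had a median of 2.45 over the 48 patches and passed 4 in 7 of them. The widest was chr13:8208997-8214996 in the desert from FLRT3 to LOC100849051, 2 windows with 142, 257, 29.8 and 142 CPM for Holstein 1 to 4 and 328, 183, 343 and 264 CPM for Angus 1 to 4, an 11.5-fold range. Angus libraries were mostly higher there, and Holstein 2 lay within their range. In chr10:96710601-96713600, between LOC100848818 and MIR2293, Holstein 2 held 86.2 CPM and Holstein 3 held 8.48 CPM, a 10.2-fold range within 1 breed, and a window 3 kb away had its extremes in Holstein 3 (6.09 CPM) and Holstein 1 (45.5 CPM). Near the end of the AUTS2 to RN18S1 desert, chr25:32361101-32364100 ranged from 11.9 CPM in Holstein 1 to 99.6 CPM in Angus 4, and the window at chr25:32373101-32376100 was lowest and highest in the same libraries, with 42.0 CPM in Angus 4. In none of the 48 patches were the breeds without overlap, where 1.31% of all tested windows of the series had no overlap. The 2 are unlike, since that share is over single windows and patches are sums of up to 48 windows of at least 10 CPM. Besides, 48 patches are too few to tell so small a share from none.

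**Figure D3:**
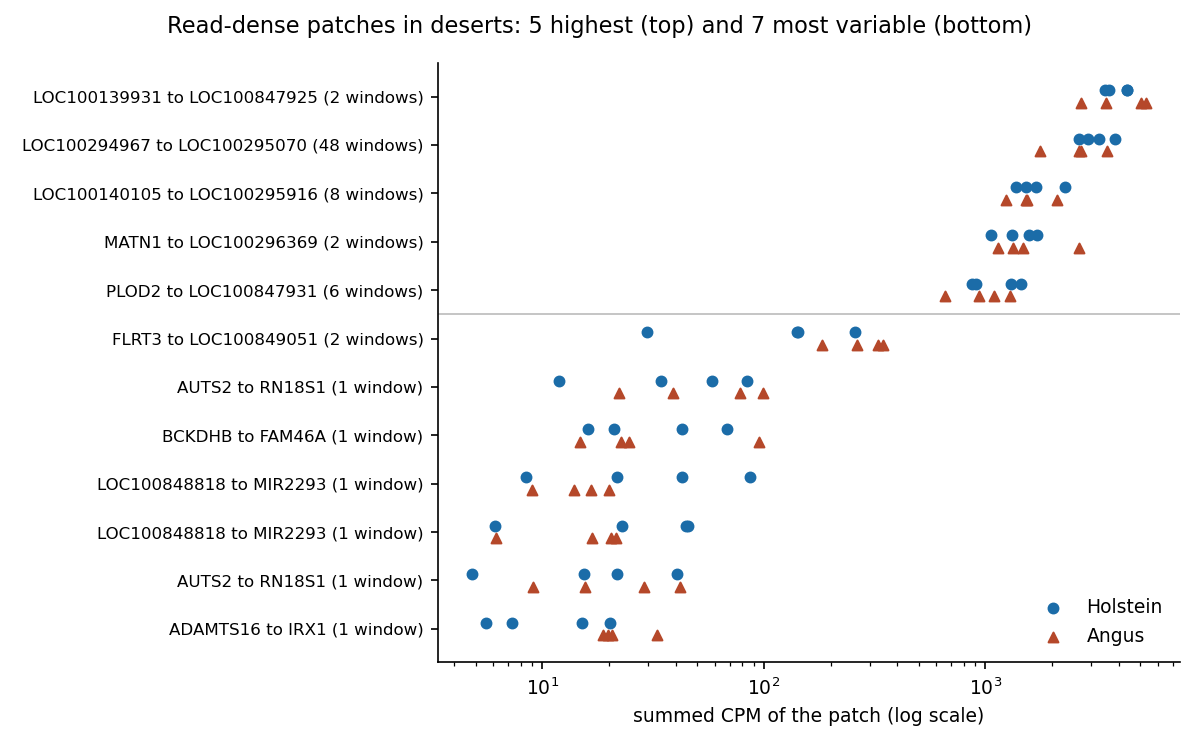
Summed CPM (log scale) of the 5 highest read-dense patches (above the line) and of the 7 patches with a more than 4-fold range between libraries (below it), with 1 point per library and breed by colour and shape, and patches named by the genes that flank their desert. The 5 highest stay within 661 to 5316 CPM in every library, while the FLRT3 patch spans 29.8 to 343 CPM, and the breeds overlap in every patch.

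Deserts were also compared with the genes at their own 2 ends. In each library, the median over 154 deserts of the log2 ratio of desert to flanking gene level was -0.26 to -0.36, with a mean of -0.30 (SD 0.0358, n = 8 libraries), a ratio of 0.811 (exact sign-flip test, 2-sided, p = 0.00781, adjusted p = 0.00977). The ratio used a pseudocount of 0.01 CPM. Of the 154 deserts, 80 were below their flanking genes in all 8 libraries and 31 were above them in all 8, so the direction was not shared by all deserts.

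Within deserts, the level differed with the distance from the nearest gene window, and its direction turned with the highest windows. With all windows, the 10114 windows within 100 kb of a gene window had 0.331 CPM (SD 0.0761, n = 8 libraries) and the 49178 windows beyond 250 kb had 0.405 CPM (SD 0.0654), a mean log2 ratio of -0.31 (exact sign-flip test, 2-sided, p = 0.00781, adjusted p = 0.00977). That p measures only how far the 8 libraries repeat each other over the same windows. It does not measure the spread between deserts or patches. Of the windows with at least 10 CPM, 11 lay among the 10114 within 100 kb and 98 among the 49178 beyond 250 kb. As shares of windows, these were 0 to 0.145% in the bands within 100 kb. They were 0.0659% from 250 to 500 kb and 0.346% beyond 500 kb. The chr8 patch alone made up 48 of the 98, with 2915 summed CPM, and the chr3 patch of 8 windows, with 1666 CPM, also lay beyond 250 kb. Without the highest 1% of windows the same comparison gave 0.273 CPM near genes (SD 0.0712) and 0.220 CPM far from them (SD 0.0612), a log2 ratio of 0.32 that was above 0 in each library (exact sign-flip test, p = 0.00781).

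Without the highest windows, the level was lower at each step away from genes. The mean over the libraries was 0.284 CPM within 25 kb, 0.280 CPM from 25 to 50 kb, 0.264 CPM from 50 to 100 kb, 0.249 CPM from 100 to 250 kb, 0.230 CPM from 250 to 500 kb and 0.209 CPM beyond 500 kb. It was lower at every step in 7 of 8 libraries, the exception being a near-equal first step. The median window, which the highest windows do not move, went from 0.196 to 0.156 CPM over the same distances. With all windows there was no such order, and the band from 100 to 250 kb, which holds the chr1 patch, was highest at 0.757 CPM.

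**Figure D4:**
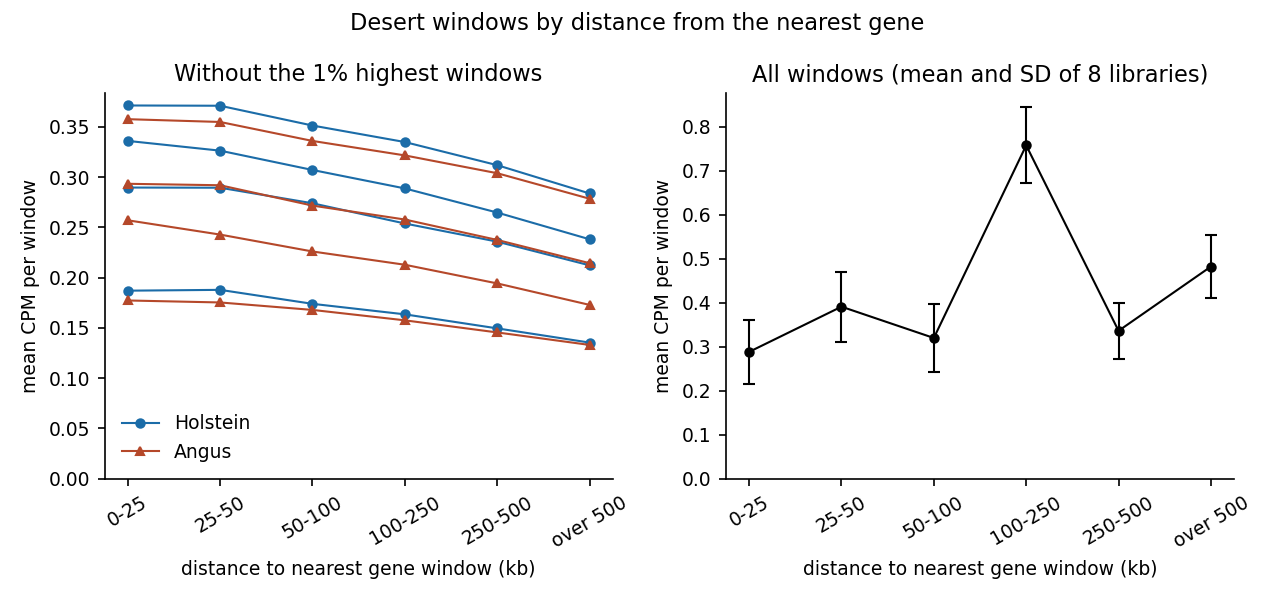
Mean CPM per desert window by distance in kb from the nearest gene window, for each library without the 1% highest windows (left) and as the mean and SD of 8 libraries with all windows (right). On the left all lines go down, on average from 0.284 to 0.209 CPM, and on the right the level is highest, at 0.757 CPM, from 100 to 250 kb.

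No difference in desert level was detected between the breeds. The mean per desert window was 0.482 CPM in Holstein (SD 0.0627, n = 4) and 0.453 CPM in Angus (SD 0.0791, n = 4), a difference of 0.0299 CPM (exact permutation test, 2-sided, p = 0.6, adjusted p = 0.6, with 0.0286 the smallest p that 4 against 4 allow). With TMM library sizes the difference was -0.0122 CPM (exact permutation test, p = 0.657). Angus 3 was the lowest library, and without it the difference was -0.00832 CPM.

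No desert passed an FDR of 0.1 when all runs of windows were compared between the breeds by edgeR's quasi-likelihood test, and 0 of the 37393 runs tested did (0%). At an unadjusted p under 0.05 stood 1 of the 154 deserts (0.649%), against 2.10% of all runs. The breeds overlapped in the CPM of each of the 154 deserts, where 0.521% of all runs with at least 10 reads had no overlap. These are not 154 separate observations, since desert CPM mostly moved together between libraries. Its coefficient of variation over the 8 libraries had a median of 28.3% with all windows. Relative to the mean desert level of the library, without the highest 1% of windows, that median was 4.41%. Each breed held a low library (Holstein 1, Angus 3) and a high one (Holstein 2, Angus 1), so overlap said little about single deserts. The likelihood-ratio test called 0 deserts and 23 of all runs (0.0615%), and DESeq2 0 deserts and 15 of all runs (0.0401%). The log2 fold changes of Holstein over Angus had a median of -0.03 over the deserts, and 148 of 154 lay within 0.2 of 0, with a median standard error of 0.121. The median over all runs was -0.0016. The desert median was 0.03 without Angus 1, and with total counts in place of TMM factors it was 0.13, where that over all runs was 0.16.

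The desert with the unadjusted p under 0.05 was the one beside FLRT3, chr13:8049997-9417996, with 0.544, 1.02, 0.415 and 0.715 CPM per window for Holstein 1 to 4 and 1.16, 0.771, 0.963 and 0.901 CPM for Angus 1 to 4. Its log2 fold change was -0.71 (SE 0.260, edgeR quasi-likelihood adjusted p = 1.00), and Holstein 2 lay within the Angus range. Its variable patch held 57.1% of its CPM. Without the highest 1% of windows the log2 fold change of the whole desert was -0.05 (SE 0.0754).

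Among single windows, 1538 desert windows (2.06%) reached 1 CPM in at least 4 libraries and were tested, against 18.8% of gene windows, so the comparison saw only the best covered part of the deserts. With edgeR's likelihood-ratio test, an FDR under 0.1 and at least a 2-fold difference, 6 of the 1538 were called (0.390%), beside 0.231% of the 115360 windows tested in the whole series. Of these, 1 was higher in Holstein, beside 0.0390% in the series, and 5 were higher in Angus, beside 0.192%. The 6 lay in 6 deserts and none was within a patch of 10 CPM. The breeds did not overlap in 19 of the 1538 desert windows (1.24%), near the 1.31% of all windows tested. With total counts in place of TMM factors, 8 of the 1538 desert windows were called (0.520%), beside 0.340% of all windows. Of these, 5 were higher in Holstein, beside 0.0719% of all windows, and 3 were higher in Angus, beside 0.268%. The median of the log2 fold changes over all windows was then 0.14.

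The largest difference was at chr15:27535857-27538856, 275 kb from a gene window in the desert beside CADM1. It held 3, 28, 24 and 24 reads for Holstein 1 to 4 (0.152, 1.21, 0.908 and 0.676 CPM) and 153, 21, 113 and 158 reads for Angus 1 to 4 (5.34, 0.730, 3.79 and 8.45 CPM). The levels of 3 Angus libraries were far above every Holstein library and Angus 2 was within the Holstein range. The log2 fold change was -2.80 (SE 0.412, edgeR likelihood-ratio adjusted p = 1.19e-07), and the quasi-likelihood test gave an adjusted p of 0.00560 and DESeq2 0.126. The windows on either side had breed means of 0.253 to 0.446 CPM, against 0.737 and 4.58 CPM in the window itself. Its highest base was covered by 91.5, 92.9 and 94.3% of the reads in Angus 1, Angus 3 and Angus 4 and by 20.8 to 57.1% in the other 5 libraries. The call was kept without Holstein 1, Holstein 3, Holstein 4 or Angus 2, and the window failed the CPM filter without any of the other 4 libraries. It reached 1 CPM only in Holstein 2 and the 3 high Angus libraries, so each kept call still held those 3. Whether the call depended on 1 of them was not tested.

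In chr8:34929387-34932386, between LOC100141071 and LOC787321, one of the 5 deserts with the lowest mean level, the reads were 16, 22, 13 and 18 for Holstein 1 to 4 and 37, 54, 34 and 39 for Angus 1 to 4. On the CPM scale these were 0.492 to 0.952 in Holstein and 1.14 to 2.09 in Angus, without overlap. The log2 fold change was -1.38 (SE 0.247, edgeR likelihood-ratio adjusted p = 6.33e-05), and this window was the one higher in Angus that DESeq2 also called (adjusted p = 0.00144). Its highest base was covered by 24.3 to 50% of the reads. The call was kept without each Holstein library, and the window failed the CPM filter without any of the Angus libraries. It reached 1 CPM only in the Angus libraries, so it was tested only through the breed in which it was higher. The adjusted p-values above and the kept calls are not free of that choice. Without the CPM filter the window was also called (log2 fold change -1.41, edgeR likelihood-ratio adjusted p = 0.000622).

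In chr9:20444051-20447050, between BCKDHB, a subunit of the branched-chain keto acid dehydrogenase, and FAM46A, the levels were 0.556, 1.64, 2.42 and 3.24 CPM for Holstein 1 to 4 and 5.48, 6.12, 2.49 and 4.12 CPM for Angus 1 to 4. Holstein 4 was above Angus 3, and the log2 fold change was -1.33 (SE 0.229, edgeR likelihood-ratio adjusted p = 2.52e-05, DESeq2 adjusted p = 0.238). The highest base was covered by 76.3 to 94.9% of the reads in the 8 libraries, so in each library most reads overlapped at 1 position. Whether this position was the same in all libraries was not tested.

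The other 2 windows higher in Angus were less firm. At chr21:64694663-64697662, between VRK1, a kinase of the nucleus, and LOC100847341, Holstein held 0.657 to 1.73 CPM and Angus 1.23 to 2.78 CPM (log2 fold change -1.17, edgeR likelihood-ratio adjusted p = 0.00813). At chr12:8500622-8503721, between LOC100138458 and LOC781034, Holstein held 0.455 to 1.56 CPM and Angus 0.749 to 2.09 CPM (log2 fold change -1.21, edgeR likelihood-ratio adjusted p = 0.0450). Both overlapped between the breeds and neither was called by DESeq2 or with total counts. The first call was lost without Holstein 4, Angus 1 or Angus 2. The second was lost without Holstein 1, Holstein 3 or Holstein 4, failed the CPM filter without Holstein 2, Angus 1, Angus 2 or Angus 3, and so stood only without Angus 4. The highest base covered 25 to 42.9% of the reads of the first window and 8.51 to 22.2% of those of the second.

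The window higher in Holstein was chr7:38656946-38659945, 73.5 kb from a gene window in the desert between LOC100138116 and SEMA6A, which encodes a semaphorin that guides axons. It held 38, 45, 53 and 46 reads for Holstein 1 to 4 (1.92, 1.95, 2.01 and 1.29 CPM) and 18, 24, 18 and 23 reads for Angus 1 to 4 (0.628, 0.834, 0.604 and 1.23 CPM). The breeds did not overlap, with Holstein 4 just above Angus 4. The highest base was covered by 22.2 to 38.9% of the reads. The log2 fold change was 1.01 (SE 0.251, edgeR likelihood-ratio adjusted p = 0.0264), the quasi-likelihood adjusted p was 0.157, the DESeq2 adjusted p was 0.0806, and the call was lost without Holstein 1, Holstein 2, Holstein 3, Angus 1 or Angus 2.

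**Figure D5:**
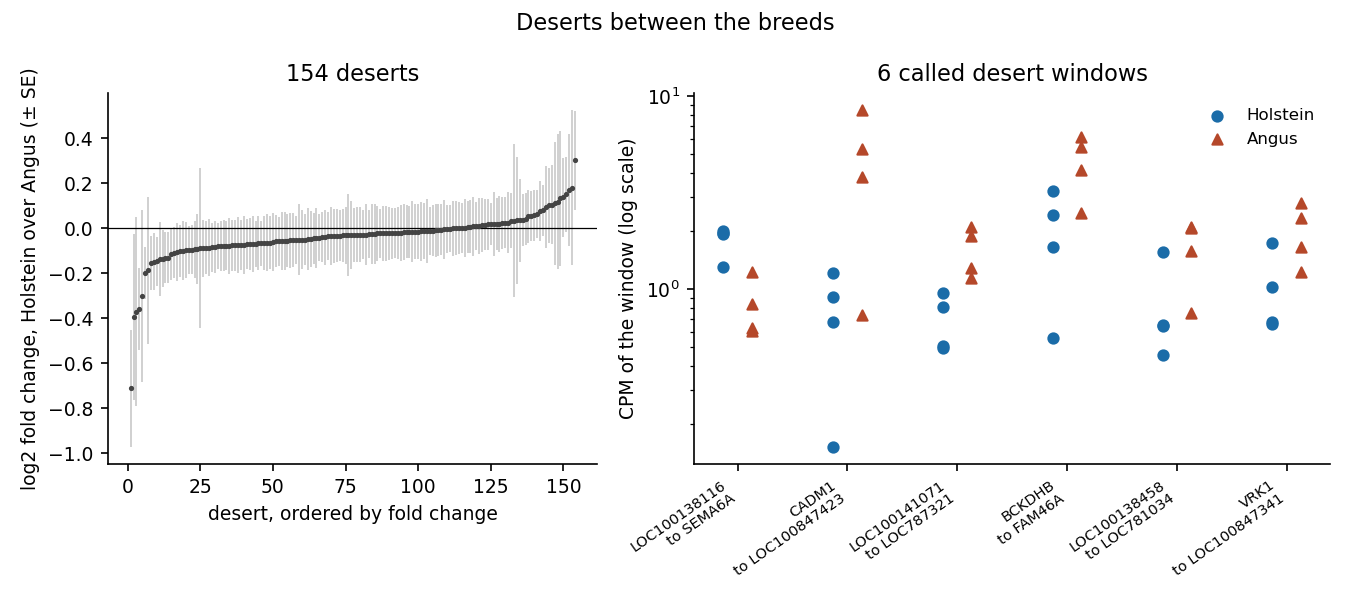
Left, log2 fold change of Holstein over Angus with its standard error for each of the 154 deserts, in order. Right, CPM (log scale) of the 6 called desert windows, with 1 point per library and windows named by the genes flanking their desert; 148 of 154 deserts lie within 0.2 of 0, and among the windows the breeds are without overlap only beside SEMA6A and between LOC100141071 and LOC787321.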

How the data were processed

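MIRA libraries of 8 cultures, 4 per breed, were analysed. Per the study's methods, the authors filtered reads on quality and aligned them to UMD v3.1 with NextGENe 2.3.4, and the labels name CASAVA 1.7. The authors deposited, for each library, raw read counts per 3 kb window with the gene name of the window, and signal as per-base coverage (the highest and the average in the window), of which the highest was used. Replicates were not pooled.

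Counts were divided by the total over all windows. Deserts were found as runs of unnamed windows of at least 1 Mb. Class levels were compared by exact tests over libraries. Windows with at least 1 CPM in 4 libraries were tested with the likelihood-ratio test of edgeR 4.0.16 (FDR 0.1, 2-fold), thresholds that the authors state, and runs with its quasi-likelihood test. TMM scaling was chosen here and is not given in the sources used here. DESeq2 1.42.0 was an alternative. Standard errors of edgeR fold changes were back-calculated as the absolute log2 fold change divided by the square root of the test statistic. The edgeR tests were tried on simulated counts with the same dispersion for every window or run. Apart from the planted changes, all simulated libraries had the same composition. Strongly variable windows and composition differences like those seen here were therefore not covered. Benjamini-Hochberg adjustment was over all windows or runs. Intervals and floors cover counting error only. Each library is 1 animal.

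Named were the 5 longest, 5 highest and 5 lowest deserts by mean CPM, called deserts and windows (up to 10 per direction), the 5 highest desert windows, and deserts flanked by genes of 2 fixed lists. The deserts and lists were chosen with earlier results of these data known. Sequences and CpG counts of the UMD v3.1 windows were not analysed here. Some deserts that this rule names are not reported here.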

Additional observations from a re-analysis of the deposited data

Results flagged for a closer look

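Within each breed, a library was singled out when its gap to the nearest other library exceeded the 95% critical value of Dixon's criterion for 4 values, over 64 groups of 4 (the 5 main comparisons, 16 named deserts and 11 named windows, per breed). Chance gives about 1 in 20 such groups, and 3 were found. Angus 4 had a log2 ratio of desert to flanking genes of -0.36, against -0.28 to -0.26 in the other Angus libraries. Holstein 1 had a log2 ratio of desert edge to desert core of -0.72, against -0.23 to -0.19 in the other Holstein libraries. In the window higher in Holstein between LOC100138116 and SEMA6A, Holstein 4 held 1.29 CPM, against 1.92 to 2.01 CPM in the other Holstein libraries.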

How the results depend on the processing

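The ratios of deserts to gene windows, other intergenic windows and flanking genes kept their direction and their p under each alternative that kept 8 libraries. Without single libraries they ranged from -0.83 to -0.80, -1.32 to -1.22 and -0.31 to -0.29. The replicate block, over the means of same-numbered pairs, left the log2 ratios at -0.81, -1.28, -0.30 and, for edge over core, -0.31, with p = 0.125 (exact sign-flip test), the smallest that 4 pairs allow. Same numbers did not pair the libraries: deviations of same-numbered libraries had a mean correlation of -0.02 (-0.22 to 0.11), against 0.01 for other numbers, and the block moved the count of called desert windows from 6 to 7. The log2 ratio of edge to core was reversed without the highest 1% of windows (0.32), with medians (0.22, p = 0.0625, exact sign-flip test) and, chosen after seeing the data, with an edge of 50 kb without the highest 1% (0.36). Without single libraries it ranged from -0.33 to -0.25. The breed difference in desert level was reversed with TMM library sizes (-0.0122 CPM) and ranged from -0.00832 to 0.0521 CPM without single libraries, negative without Angus 3. The 6 called desert windows became 2 with DESeq2 (0.130%, beside 0.123% of all windows tested), 26 of 74146 without the CPM filter (0.0351%, beside 0.102%), and 2 to 6 without single libraries (0.145 to 0.443%, beside 0.138 to 0.493%), with 2 without Angus 1 or Angus 2 and 3 without Holstein 2 or Angus 3. The 0 called deserts stayed 0 throughout. The cause of these moves was not tested, except that leaving out a library also changes which windows pass the filter. The median desert window held 2 to 7 reads, so differences in most single desert windows were not detectable at this depth.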
